A study of Mus musculus with 24 samples.

Results

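The olfactory receptor genes of mouse chromosome 9 were described as the protein-coding genes of an mm9 annotation (GENCODE M1) whose symbols start with Olfr and which lie on that chromosome. There were 129 of them among 22208 protein-coding genes, or 11.6% of the 1113 Olfr genes of the annotation. The question was where these genes lay relative to the chromatin domains that lamins and LAP2alpha occupy in fibroblasts. The study used immortalized murine dermal fibroblasts, a line from mouse skin, either Lap2alpha -/- (KO, the Tmpo gene deleted for the LAP2alpha isoform) or Lap2alpha +/+ (WT). Nuclei of formaldehyde-fixed cells were sheared by 30 or by 12 sonication cycles, and chromatin was immunoprecipitated and sequenced (ChIP-seq). The antibodies were N18, raised against the N terminus of lamin A/C, 3A6-4C11 (3A6 below), which detects the Ig fold of lamin A/C, 8C10-1H11 for LAP2alpha, and a Proteintech antibody for lamin B1.

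At each sonication the libraries were N18 KO, N18 WT, 3A6 KO, 3A6 WT, LAP2alpha WT and lamin B1 WT, so that 4 KO and 8 WT libraries were analysed, each the single library of its group. Without replicates, genotype, antibody and sonication could not be tested, and every value is a description of single libraries. The labels do not say how many independent lines or animals each genotype came from. The 12 libraries held between 3989494 and 13601739 reads inside SICER islands, which are short enriched regions. The KO and WT lamin A/C libraries of a given sonication shared a sequencing lane, as did the lamin B1 libraries of both sonications. The lamin A/C and the LAP2alpha libraries of 30 cycles came from other flow cells than those of 12 cycles, so the effects of sonication and of the flow cell on them cannot be told apart. Region lists hold no transcript levels, so neither the deletion in KO nor the fibroblast label could be checked from them.

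Olfactory receptors are G protein-coupled receptors with which sensory neurons of the nose detect odorants. Each neuron expresses a single receptor gene, from 1 allele, and the other receptor genes stay silent in compact chromatin. Fibroblasts are not olfactory neurons. Lamins form a meshwork under the nuclear envelope that holds long stretches of silent chromatin, called lamina-associated domains. Lamin B1 stays at the envelope, whereas part of lamin A/C lies in the nuclear interior, where it binds LAP2alpha.

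The 129 genes formed 2 clusters separated by 17.4 Mb, when a gap over 1 Mb was taken to start a new cluster. The proximal cluster held 35 genes from Olfr24 to Olfr18, over 1.58 Mb (chr9:18559100-20140538, mm9). The distal cluster held 94 genes from Olfr151 to Olfr986, over 2.48 Mb (chr9:37518857-39995679). Olfr151 encodes the odorant receptor M71. Gene density was 22.1 receptor genes per Mb in the proximal and 38.0 per Mb in the distal cluster, and together the spans took 3.27% of the chromosome. Most genes were short, with a median length of 966 bp in the proximal and 951 bp in the distal cluster, and 105 of 129 were annotated with a single exon. The longest were Olfr872 (23752 bp), Olfr18 (22203 bp) and Olfr151 (19790 bp), and the Olfr151 record joins transcripts with 3 different coding sequences. Both strands were used, with 21 genes on the plus and 14 on the minus strand in the proximal cluster, against 65 and 29 in the distal cluster. Only Zfp317 interrupted the proximal cluster, and 5 other protein-coding genes lay within the distal cluster.

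The genes share a coding signature of the family, a stretch of 10 residues around an aspartate, an arginine and a tyrosine at the inner end of the third transmembrane helix. All 10 residues were found in the translated mm9 annotation of 69 genes, 9 of the proximal and 60 of the distal cluster, and at least 8 of 10 in 125 genes. The exceptions were Olfr978, Olfr979, Olfr980 and Olfr986. The predicted proteins had 305 to 331 residues, with a median of 312. The coding bases of that stretch are printed for 5 of the genes that mark edges discussed below. These genes lie at ends of the clusters or of a run that differed between genotypes. Olfr151, the first distal gene, is not printed and matched all 10 residues. Capitals mark codons whose residue equals that of the signature, read 5′ to 3′ on the coding strand (mm9).
Olfr24: ATGGCTTACGACCGGtttGTGGCCATTTGT
Olfr857: ATGGCCTATGACCGAtggGTAGCTATTTGT
Olfr872: ATGGCCTATGATAGGtttGTAGCCATCTGT
Olfr18: ATGGCTTATGATAGGtttGTGGCCATCTGT
Olfr986: ATGtcttttGACCGCTACctgGCCATCTGT
These stretches lie at chr9:18559697-18559726 (Olfr24, minus strand), chr9:19517624-19517653 (Olfr857, plus), chr9:20064679-20064708 (Olfr872, plus), chr9:20118916-20118945 (Olfr18, minus) and chr9:39995047-39995076 (Olfr986, plus). In the proximal genes shown, 1 codon departed from the signature, and in Olfr986 3 codons did.

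Receptors resembled their neighbours within a cluster more than those of the other cluster. The median identity of predicted proteins was 55.6% over 595 pairs within the proximal cluster and 57.0% over 4371 pairs within the distal cluster, against 41.7% over 3290 pairs between clusters. For all 35 proximal and all 94 distal genes the most similar other member lay in the same cluster. The highest identity was 96.8%, between Olfr952 and Olfr955, and Olfr870 and Olfr871 in the proximal cluster shared 96.1%. In all, 12 genes had a partner at 95% identity or more. The authors discarded reads with a mapping quality below 20, a step that removes reads placed equally well on such copies, and its part in the calls over these genes was not tested.

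A gene was counted as inside a domain when EDD domains took 50% or more of its length. These domains were called by the authors with a program that finds broad enriched regions in bins of 11 kb. After 30 cycles with 3A6, 32 of 129 genes (24.8%) were inside in KO cells, against 113 (87.6%) in WT cells. Of all genes, 12.6% were inside in KO and 9.4% in WT. Lamin B1 at 30 cycles held 125 genes (96.9%), against 16.8% of all genes. LAP2alpha at 30 cycles held 4 genes (3.1%), Olfr151, Olfr874, Olfr875 and Olfr876, where 32.3% of all genes were inside. With N18 at 30 cycles, 0 of 129 genes were inside in KO and 0 in WT, although 28.5% of all genes were inside in KO and 5.89% in WT.

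After 12 cycles only lamin B1 held any of the receptors, with 118 of 129 (91.5%) inside, against 7.78% of all genes. None was inside with N18 in KO or WT (23.1% and 27.4% of all genes), with 3A6 in KO or WT (10.7% and 21.1% of all genes) or with LAP2alpha (35.9% of all genes). Thus 5 of 12 libraries held any of the 129 genes and 7 held none. At 12 cycles lamin B1 held 9834885 reads inside islands, and the other libraries of that sonication held 3989494 to 5520180. The part of depth in this contrast was not tested. A total of 8 domains accounted for every call, and neighbouring genes in a domain are not independent observations. All 129 genes were inside at least 1 library's domains, with 19 genes inside in 4 libraries, 99 in 3, 8 in 2 and 3 in 1. The number of libraries per gene is not given here for all genes, so these counts cannot be read as particular to the receptors.

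**Figure D1:**
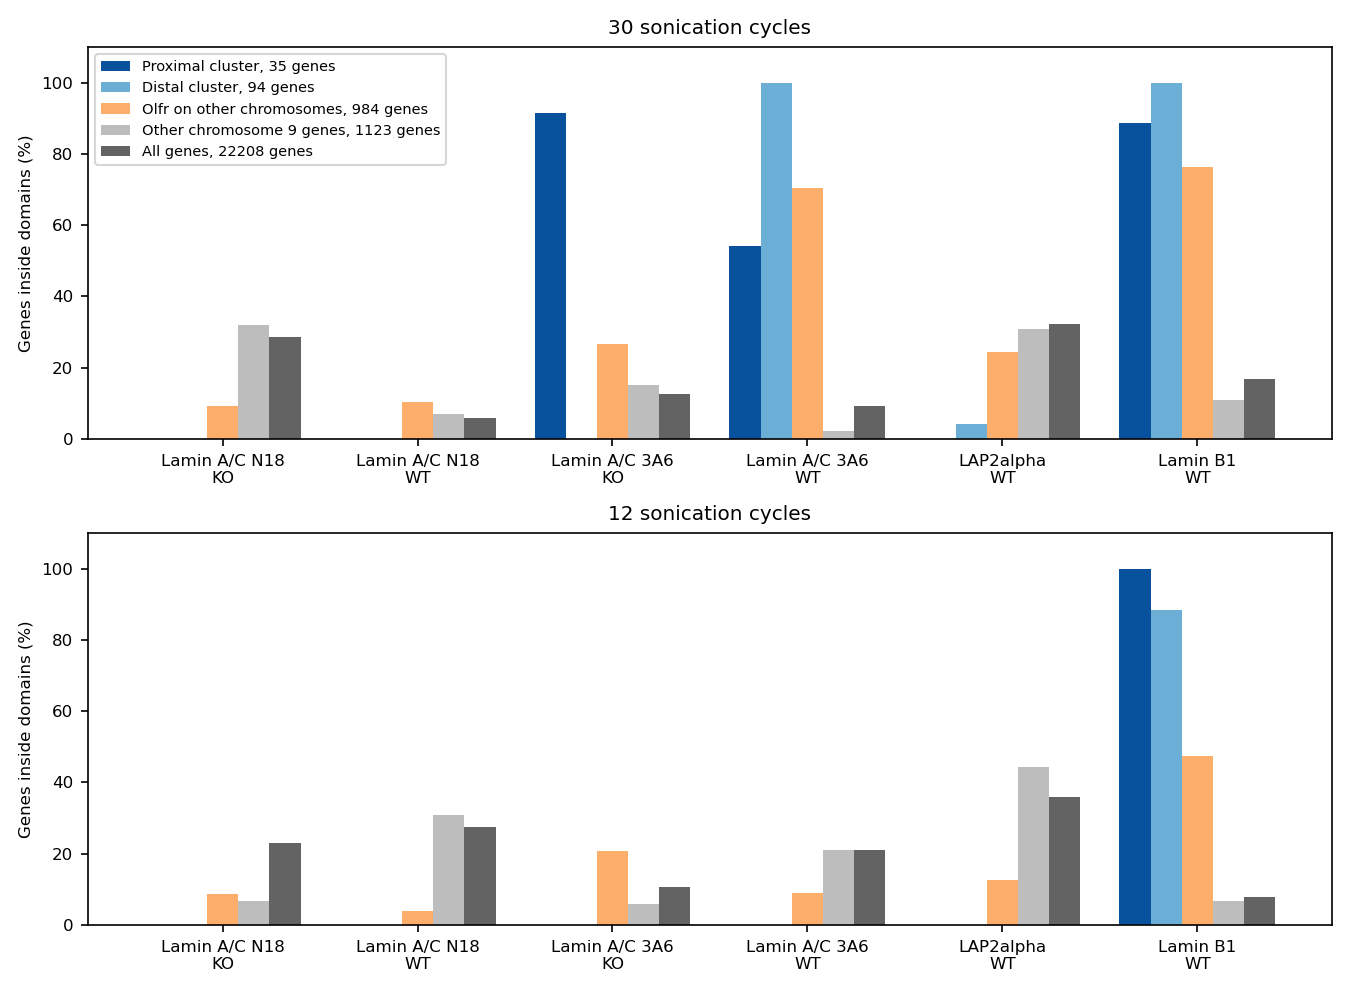
Percent of genes covered at 50% or more by EDD domains (y axis) in each library (x axis, 1 library per group, no error bars), with 30 sonication cycles above and 12 below; the bars stand for the 2 chromosome 9 clusters, Olfr genes on other chromosomes, the remaining chromosome 9 genes and all genes. At 12 cycles the cluster bars stand at 0 in 5 libraries and at 100% and 88.3% with lamin B1, and at 30 cycles the 3A6 KO library holds 91.4% of the proximal and 0% of the distal genes.

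The clusters differed from each other in the 3A6 comparison of genotypes at 30 cycles. In the proximal cluster 32 of 35 genes (91.4%) were inside in KO and 19 of 35 (54.3%) in WT. In the distal cluster 0 of 94 genes were inside in KO, whereas all 94 were inside in WT. Gene by gene, 13 proximal receptors were gained in KO, 19 were kept, 94 distal receptors were lost and 3 (Olfr39, Olfr873 and Olfr18) were inside in neither. Of the 129 receptors 10.1% were gained and 72.9% lost, against 8.94% and 5.75% of all genes. The gained share thus lay near that of all genes. The 13 gained genes formed an unbroken run from Olfr857 to Olfr872 (chr9:19517273-20065357), next to the 19 kept genes from Olfr24 to Olfr855. Coverage of Olfr24 was 100% in KO and 100% in WT, that of Olfr857 was 100% in KO and 0% in WT, and that of Olfr151 and of Olfr986 was 0% in KO and 100% in WT.

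No receptor changed in the other 3 genotype comparisons, because none was inside in either genotype. Over all genes, 24.4% were gained and 1.76% lost in KO with N18 at 30 cycles, 7.64% gained and 11.9% lost with N18 at 12 cycles, and 5% gained and 15.4% lost with 3A6 at 12 cycles. With 1 library per genotype, a difference between cells cannot be told apart from a difference between immunoprecipitations. The proximal gain was sensitive to the domain threshold. The WT domain there had a score of 5.1, below the median of 6.49 of its library, and when only domains above the median were kept 32 proximal genes were gained instead of 13. The loss over the distal cluster remained at 94 genes under that threshold.

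The domains over the proximal cluster differed in where they began and ended. The 3A6 KO domain at 30 cycles ran over 4.91 Mb (chr9:15169001-20075000), started 3390.1 kb before Olfr24 and ended 65.5 kb short of the last gene. The 3A6 WT domain ran over 1.00 Mb (chr9:18392001-19393000), started 167.1 kb before Olfr24 and ended 747.5 kb short of the last gene. Its end fell in the widest gap between neighbouring receptors of the cluster, 127.3 kb between Olfr855 and Olfr857, at 3.05 kb past Olfr855. This gap also holds Zfp317, which encodes a zinc finger protein and was 100% covered in KO and 0% in WT. Lamin B1 domains ran over 4.49 Mb at 30 cycles (chr9:15565001-20053000) and 3.97 Mb at 12 cycles (chr9:16203001-20174000). Only the 12-cycle lamin B1 domain reached past Olfr18, by 33.5 kb.

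The genes at this end were thus the least often covered receptors. Olfr39, Olfr873 and Olfr18 were 100% covered with lamin B1 at 12 cycles and 0% in the other libraries. Olfr872 was the only receptor covered in part. It was 100% covered with 3A6 in KO at 30 cycles and with lamin B1 at 12 cycles, 48.0% with lamin B1 at 30 cycles, and 0% in the other 9 libraries. The lamin B1 domain at 30 cycles ended 11.4 kb inside this long gene, so that its start was covered and most of its length was not. Counted by transcription start, lamin B1 at 30 cycles held 126 receptors.

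Over the distal cluster the 30-cycle domains of 3A6 in WT and of lamin B1 in WT had the same start and the same end (chr9:37477001-39996000, 2.52 Mb). They started 41.9 kb before Olfr151 and ended 0.321 kb past Olfr986, so that they framed the cluster within a few bins. Such a match was rare, since 2 of 363 3A6 WT domains shared both edges with a lamin B1 domain, although 10.5% of the single edges were shared. The series lists 1 input for each genotype and sonication, so these lists are not independent of each other. The score of the shared domain was 7.8 with 3A6, rank 136 of 363 domains, and 43.5 with lamin B1, rank 60 of 370. EDD scores of different libraries are not on a common scale. In KO the nearest 3A6 domain at 30 cycles ended 1031.9 kb before Olfr151 and the next began 4785 kb after Olfr986.

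Lamin B1 at 12 cycles covered the middle of the distal cluster (chr9:37741001-39897000, 2.16 Mb), with 83 genes from Olfr881 to Olfr982. It started 222.1 kb after the start of Olfr151 and ended 98.7 kb before the end of Olfr986. The 11 genes outside it were Olfr151, Olfr874, Olfr875, Olfr876, Olfr877, Olfr145 and Olfr878 at the near end and Olfr983, Olfr984, Olfr985 and Olfr986 at the far end. LAP2alpha at 30 cycles reached the near end only, through a domain of 2.72 Mb (chr9:34914001-37631000) that held 47 genes other than receptors and 4 receptors. This domain overlapped the 3A6 and lamin B1 domains over 0.112 Mb of the cluster, or 4.53% of its span.

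**Figure D2:**
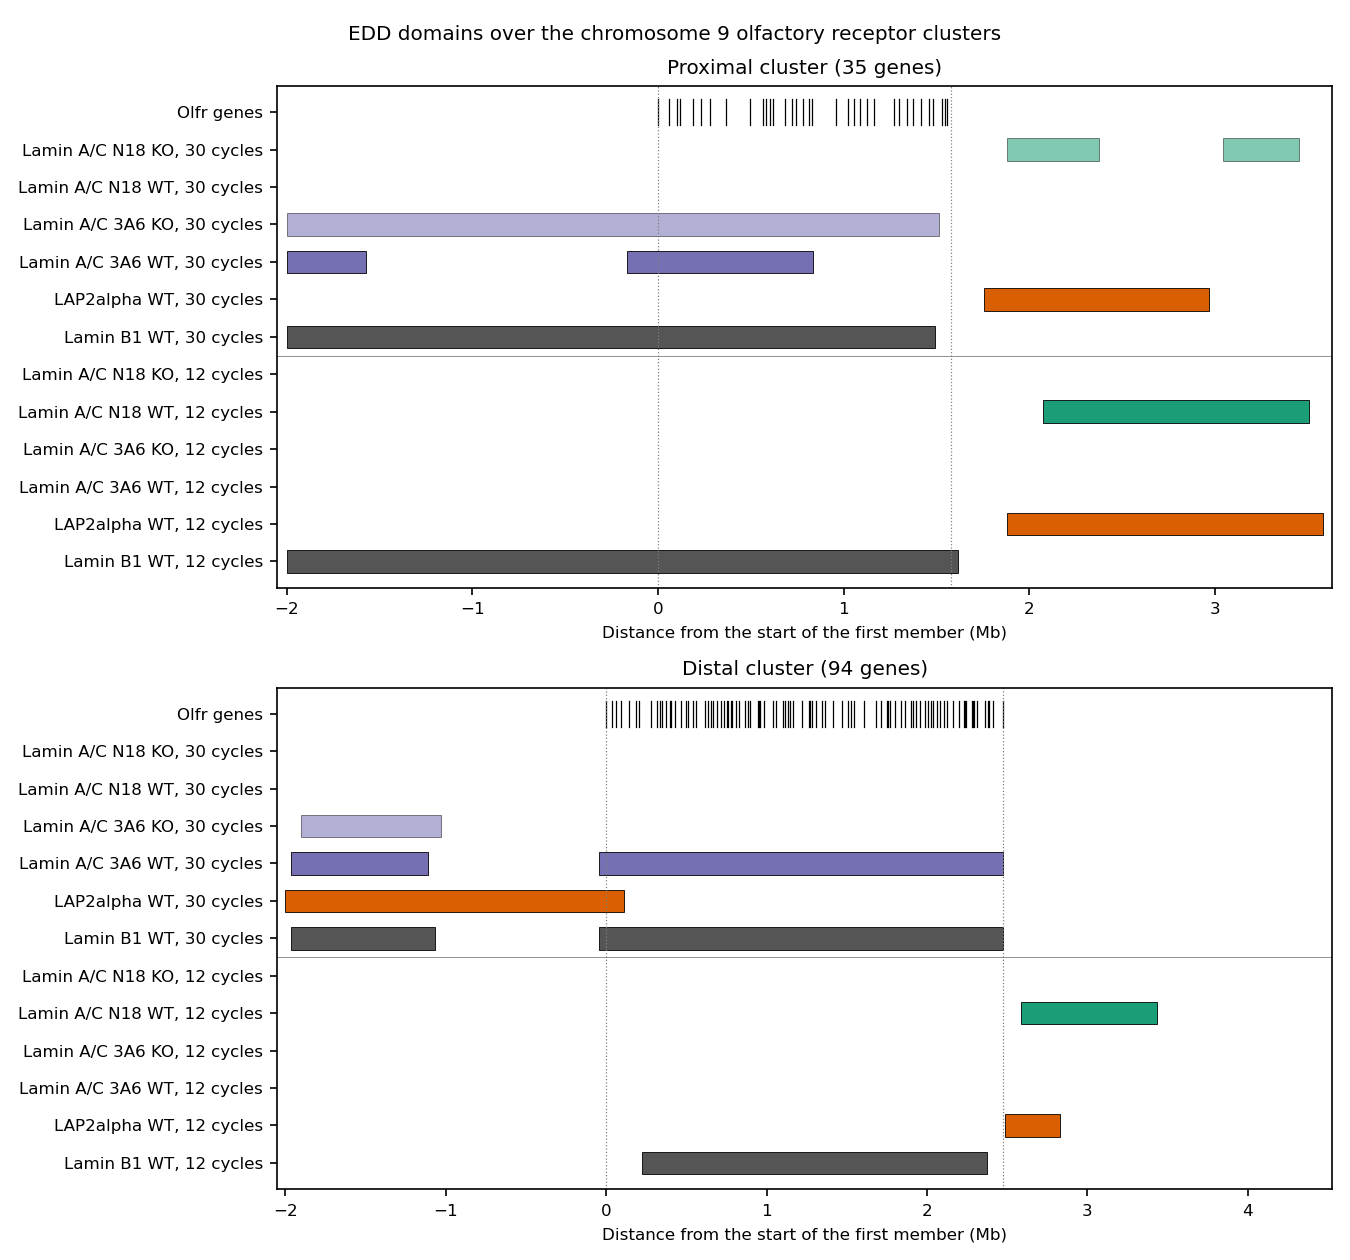
EDD domains (bars) of the 12 libraries (rows) over the proximal (upper) and distal (lower) cluster against distance in Mb from the start of the first gene, with up to 2 Mb on either side; ticks are receptor genes, dotted lines the cluster ends, and KO bars are paler. Over the proximal cluster the 3A6 KO bar reaches beyond the WT bar, and over the distal cluster 3A6 in WT and lamin B1 at 30 cycles share both edges while the 3A6 KO row has no bar over the cluster.

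By sonication, lamin B1 held 125 receptors at 30 cycles and 118 at 12 cycles, and both libraries came from 1 lane. Of the proximal genes 31 were inside at 30 cycles and 35 at 12 cycles, whereas of the distal genes 94 were inside at 30 cycles and 83 at 12 cycles. With 3A6, 32 receptors were inside at 30 cycles and 0 at 12 cycles in KO, and 113 at 30 cycles and 0 at 12 cycles in WT. LAP2alpha held 4 at 30 cycles and 0 at 12 cycles. N18 held 0 at both. Reads inside islands numbered 7927688 at 30 and 3989494 at 12 cycles for 3A6 KO, and 8187172 and 4884992 for 3A6 WT. LAP2alpha had 6684246 at 30 and 5097817 at 12 cycles. N18 also had more reads at 30 cycles, with 13601739 against 5520180 in KO and 9600190 against 5091621 in WT. The part of depth in these counts was not tested.

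In the 1 Mb before the proximal cluster all 7 genes were inside 3A6 KO domains at 30 cycles and lamin B1 domains at both sonications, and none was inside the domains of any other library. Within 1 Mb after the proximal cluster, 29 of 33 genes were inside LAP2alpha domains at 30 cycles and 27 of 33 at 12 cycles, and lamin B1 held 0 at 30 cycles and 1 at 12 cycles. N18 held 19 of 33 in KO and 0 in WT at 30 cycles, and the reverse order was found at 12 cycles, with 0 in KO and 22 in WT. The nearest of these domains began 176.5 kb after Olfr18 (LAP2alpha, 30 cycles). Zfp560, a zinc finger gene 9.04 kb after the cluster, was 61.0% covered with lamin B1 at 12 cycles and 0% in the others. On the other side of the cluster the nearest gene, Muc16, which encodes a large mucin, was 100% covered with 3A6 in KO at 30 cycles and with lamin B1 at both sonications, and 0% with 3A6 in WT.

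All 18 genes in the 1 Mb before the distal cluster were inside the LAP2alpha domain at 30 cycles, which continued into the cluster, and 0 of 18 were inside in each of the other 11 libraries, LAP2alpha at 12 cycles included. The closest, Panx3, a pannexin channel gene 42.0 kb before Olfr151, was 100% covered with LAP2alpha at 30 cycles and 0% elsewhere. After the cluster, Zfp202, which lies 4.22 kb past Olfr986 and encodes a zinc finger protein, was 66.6% covered with LAP2alpha at 12 cycles and 0% elsewhere, where a LAP2alpha domain began 11.3 kb past the cluster. N18 in WT at 12 cycles held 7 of the 9 genes in the 1 Mb after the cluster, and N18 in KO at 12 cycles held 0. Within the cluster, the non-receptor genes Vwa5a, AW551984 and 1700001J11Rik were 100% covered in the same 3 libraries as most receptors around them, 3A6 WT at 30 cycles and lamin B1 at both sonications. Tmem225 and Gm4893, near the far end, were 100% covered with 3A6 in WT and lamin B1 at 30 cycles only.

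SICER islands within the spans numbered 5, 1 each in 5 libraries, beside 14 to 384 islands per library on the whole chromosome. In each of these 5 libraries the clusters held 0.246 islands per Mb. The chromosome held fewer with 3A6 WT (0.169) and lamin B1 (0.201) at 30 cycles and with lamin B1 at 12 cycles (0.113). It held more with 3A6 KO, 0.774 at 30 and 0.411 at 12 cycles. In the libraries without an island in the clusters the chromosome held 0.830 to 3.09 per Mb. With 3A6 at 30 cycles the KO library had an island of 806 reads over 19 kb in the proximal cluster (chr9:18932001-18951000), and the WT library had 392 reads over 10 kb in the distal cluster (chr9:37595001-37605000). Lamin B1 had 502 reads over 15 kb at 30 cycles (chr9:39710001-39725000), which covered Olfr229, and 584 reads over 18 kb at 12 cycles (chr9:18868001-18886000). These 4 islands lay inside domains of their own library. The island of 3A6 in KO at 12 cycles (chr9:39060001-39079000, 326 reads over 19 kb) covered Olfr945 and lay outside domains.

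The receptors of chromosome 9 were then set beside the 984 Olfr genes of other chromosomes and the 1123 other genes of chromosome 9. With lamin B1 at 30 cycles 96.9% of the chromosome 9 receptors were inside, against 76.3% of receptors elsewhere and 11% of the other chromosome 9 genes. At 12 cycles 91.5% of the chromosome 9 receptors were inside lamin B1 domains, against 47.4% of receptors elsewhere and 6.68% of the other chromosome 9 genes. The shares elsewhere pool chromosomes that differed. Lamin B1 held 98.3% of the chromosome 2 receptors at 30 cycles and 95.8% at 12 cycles. Of the chromosome 7 receptors it held 92.9% at 30 cycles and 25% at 12 cycles. With 3A6 at 30 cycles, 10.1% of the chromosome 9 receptors were gained in KO, 14.7% kept and 72.9% lost. Of the receptors elsewhere 5.69% were gained, 21.1% kept and 49.3% lost, and of the other chromosome 9 genes 13.8% were gained, 1.42% kept and 0.89% lost. Of the other genes of the chromosome, 171 of 1123 were inside in KO and 26 in WT. The proximal receptors differed in the same direction, with 32 of 35 inside in KO and 19 in WT. The distal receptors differed in the opposite direction, with 0 of 94 inside in KO and 94 in WT. The loss was not limited to receptors. Of the other chromosome 9 genes 10 were lost, among them all 5 that lie within the distal cluster. Domains took 26.4% of chromosome 9 with 3A6 in KO at 30 cycles and 12.8% in WT.

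Receptors on 13 chromosomes with at least 10 Olfr genes could be compared in the same way. The share inside 3A6 domains at 30 cycles was lower in KO than in WT on 10 of them, higher on 2 (chromosomes 4 and 17) and 0 in both genotypes on chromosome 13. On chromosome 2, which holds 286 receptors, 0% were inside in KO and 98.3% in WT, and on chromosome 7, with 240, 46.2% in KO and 74.6% in WT. Chromosome 9 lay between these, at 24.8% in KO and 87.6% in WT. The receptors of a chromosome lie in few clusters, and how far chromosome 9 stands apart from the others was not tested.

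**Figure D3:**
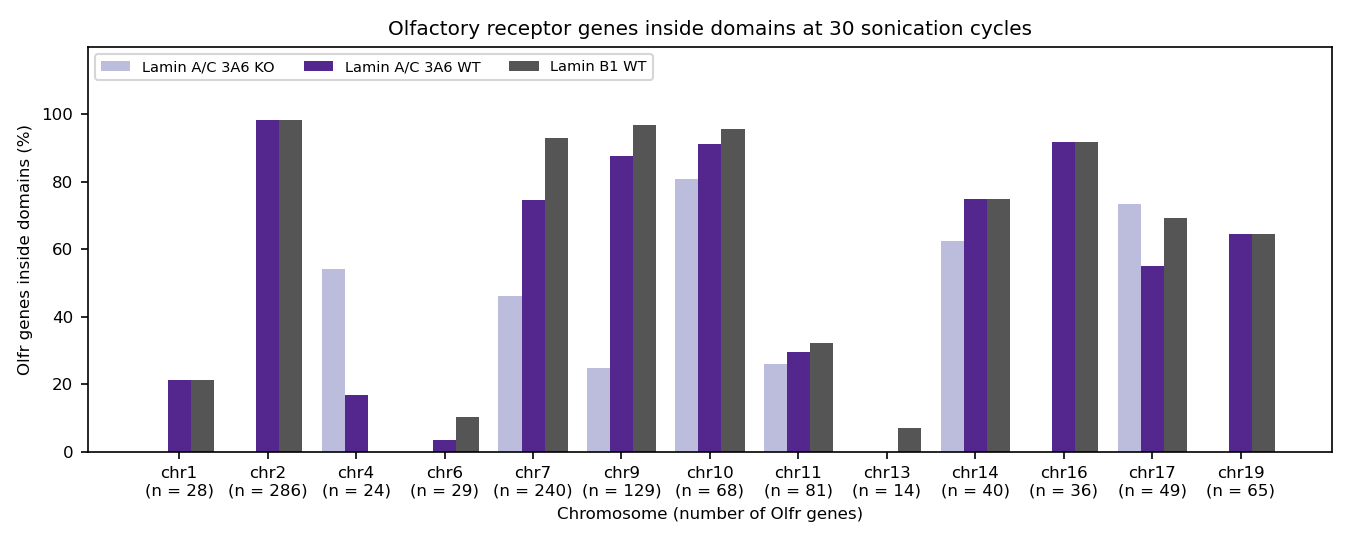
Percent of Olfr genes inside EDD domains at 30 sonication cycles (y axis) on each chromosome with at least 10 Olfr genes (x axis, number of genes in brackets) for 3A6 in KO, 3A6 in WT and lamin B1 in WT, 1 library each. The KO bar is lower than the WT bar of 3A6 on 10 of 13 chromosomes, chromosome 9 among them (24.8% in KO and 87.6% in WT).

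Both clusters were poor in G+C. The proximal span had 38.0% G+C and the distal span 37.7%, against 42.7% over chromosome 9. In the 1 Mb before the proximal cluster G+C was 38.6%, close to that of the cluster, and in the 1 Mb after it 47.4%. Around the distal cluster it was 43.9% before and 45.1% after. In windows of 11 kb, 97.2% of the proximal and 99.1% of the distal windows lay below the chromosome's level, against 98.9% before and 18.7% after the proximal cluster and 34.4% before and 12% after the distal cluster (1 Mb each). The proximal stretch kept in KO (Olfr24 to Olfr855) had 37.6% G+C and the gained stretch (Olfr857 to Olfr872) 38.4%. G+C of single receptor genes had a median of 39.2% in the proximal and 42.3% in the distal cluster, against 45.8% over the other genes of the chromosome. Its part in the domain calls was not tested.

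**Figure D4:**
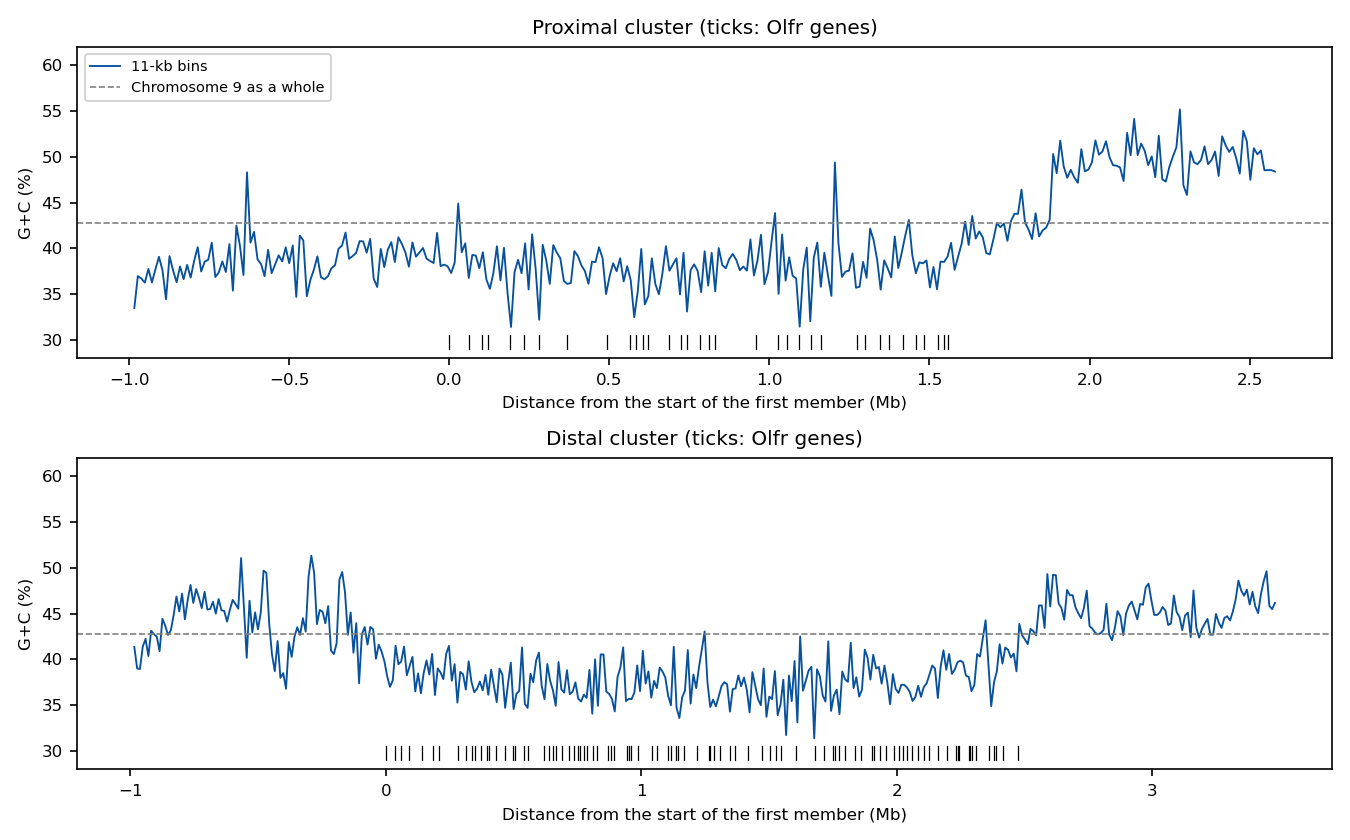
G+C content (y axis, percent) of mm9 in windows of 11 kb (line) against distance in Mb from the start of the first gene, for the proximal (upper) and distal (lower) cluster with 1 Mb on either side; ticks are receptor genes and the dashed line is the level of chromosome 9, 42.7%. Most windows of both clusters and of the 1 Mb before the proximal one lie below the dashed line, and most of those after either cluster and before the distal one lie above it.

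Upstream sequences were taken from RefSeq windows, 250 bases before to 50 after a gene's start (GRCm38.p6), and 107 windows matched 106 of the 129 genes. The homeodomain core, bound by factors such as Lhx2 and Emx2 in olfactory neurons, was searched as TAATTA or TAATGA on both strands, and the O/E core, bound by Ebf proteins, as CCCNNGGG. A homeodomain core was present in 43.0% of the receptor windows, against 13.9% of all 32851 windows, and in 72.4% of the 29 proximal and 32.1% of the 78 distal windows. Among Olfr genes of other chromosomes 40.5% of windows held it. The O/E core was found in 1.87% of the receptor windows, against 3.21% among Olfr genes of other chromosomes and 13.7% of all windows. Receptor windows had a median G+C of 34.0%, against 52.7% over all windows, and the part of base composition in these shares was not tested. In 62.6% of the receptor windows the annotated start was the start codon itself, so that these windows may not hold the promoter. A match is a description of letters and no binding was measured.

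The windows of Olfr872 and Olfr986 are printed as those next to the domain edges described above, with homeodomain cores in capitals. Both matched mm9 exactly once, at chr9:20041356-20041655 (plus strand) for Olfr872 and chr9:39994414-39994713 (plus strand) for Olfr986.
Olfr872: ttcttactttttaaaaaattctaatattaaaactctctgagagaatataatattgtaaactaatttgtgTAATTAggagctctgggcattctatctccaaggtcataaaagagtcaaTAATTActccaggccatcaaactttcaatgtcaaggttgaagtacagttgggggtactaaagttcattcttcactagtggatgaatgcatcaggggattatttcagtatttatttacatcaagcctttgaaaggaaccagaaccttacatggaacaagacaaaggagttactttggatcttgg
Olfr986: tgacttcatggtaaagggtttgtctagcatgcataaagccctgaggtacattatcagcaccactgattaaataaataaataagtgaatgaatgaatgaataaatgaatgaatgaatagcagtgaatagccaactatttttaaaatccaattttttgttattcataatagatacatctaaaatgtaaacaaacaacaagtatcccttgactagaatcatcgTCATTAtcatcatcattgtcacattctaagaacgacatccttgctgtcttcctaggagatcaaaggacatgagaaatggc
The Olfr872 window held 2 such cores at 34.0% G+C, and the Olfr986 window held 1 at 32.7% G+C. The window of Olfr872 lay inside the 3A6 KO domain and outside the 3A6 WT domain at 30 cycles, and that of Olfr986 lay inside the 3A6 WT domain and outside any 3A6 KO domain.

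A list of 31 genes with which olfactory neurons signal through these receptors, or choose and place them, was counted in the same way, and 29 of them were annotated. Of these, 8 were inside in no library. At 30 cycles 3A6 domains held 5 of 29 (17.2%) in KO, against 12.6% of all genes, and 0 in WT, against 9.4%. N18 domains held 12 (41.4%) in KO, against 28.5% of all genes, and 4 (13.8%) in WT, against 5.89%. LAP2alpha held 11 (37.9%), against 32.3% of all genes, and lamin B1 held 1 (3.45%), against 16.8%. The gene inside lamin B1 domains was Cnga2, a subunit of the cyclic nucleotide-gated channel. At 12 cycles N18 held 10 (34.5%) in KO, against 23.1% of all genes, and 10 in WT, against 27.4%. 3A6 held 6 (20.7%) in KO, against 10.7%, and 6 in WT, against 21.1%. LAP2alpha held 12 (41.4%), against 35.9%, and lamin B1 held 0, against 7.78%. With a list of this size several of these shares lay near those of all genes.

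Adrbk2, a receptor kinase, and Ebf3, a transcription factor, were inside in 9 libraries each, Slc24a4, a sodium-calcium exchanger, in 8, and Adcy3, the adenylyl cyclase of the odorant response, in 7. Ano2, a calcium-activated chloride channel, was inside in 5 libraries, and so were the G protein subunit genes Gnas and Gng13 and the transcription factor Atf5. The 5 genes inside 3A6 domains in KO at 30 cycles were Gnas, Cngb1 (a channel subunit), Slc24a4, Ebf3 and Adrbk2, and none of them was inside in WT. Lhx2, the homeodomain factor of receptor choice, was inside in 3 libraries, and Lbr, the lamin B receptor, and Gnal were inside in 2 each. The 8 listed genes inside in no library were Gnb1, Cnga4, Omp, Rtp2, Reep1, Pde1c, Emx2 and Ebf1. The number of libraries per gene is not given here for all genes. Pde4a, a phosphodiesterase gene, is the 1 listed gene on chromosome 9. It lies 829.6 kb after the proximal cluster and was inside LAP2alpha domains at both sonications and N18 WT domains at 12 cycles, none of which held a receptor of that cluster.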

How the data were processed

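Region lists of 12 ChIP-seq libraries were used, and 12 further samples (inputs and histone marks) were not analysed here. According to the submitters' notes and the study's methods, adapters were clipped (cutadapt), reads were aligned by Bowtie2 2.1.0 (mm9), those with mapping quality below 20 and duplicates were discarded, and each ChIP file was reduced (Picard) to the size of its input. Per the study's methods, domains were called per library with EDD 1.0.2 (bins of 11 kb, gap penalty 5, FDR 0.1) and islands with SICER 1.1 (window 1000 bp, gap 3000 bp, FDR 0.01). The deposited domain lists hold the EDD score of each domain, and the deposited island lists hold the read count of each island, which the authors did not divide by length or depth. Depth was taken as the reads inside islands and limits which regions could be called; no interval could be given.

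From 22350 protein-coding records of GENCODE M1 (mm9), the longest per symbol was kept (22208 symbols). Percent coverage, clusters, G+C and motifs were computed with Python 3.11.15, and proteins translated from mm9 were aligned with Biopython 1.88. Coverage and clustering were tested on simulated regions. Members and lists were chosen with earlier results of these data known. Named genes were the ends of clusters and of changed runs, and the most and least often covered, partly covered and longest members. They also included the neighbours and genes within each cluster, and listed pathway genes inside domains. The other genes named were chosen after their values were seen. Those were neighbours of these genes, island genes, pairs of highest identity, genes lacking the signature and listed pathway genes inside in no library. Alternatives were any overlap, whole-gene coverage, transcription start, domains above the median score or of at least 500 kb, SICER islands, members under 2 kb, and cluster gaps of 500 kb and 2 Mb.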

Additional observations from a re-analysis of the deposited data

How the results depend on the processing

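Of 170 alternative values, 154 stayed within 1.5 times of the value reported and did not reverse. These included all those under any overlap, whole-gene coverage, transcription start and domains of at least 500 kb. Many of the 154 were values of 0 that stayed at 0, such as those of N18, and had no direction to keep. Only 1 receptor was covered in part in any library, so the first 3 of these alternatives could hardly move a count. Under SICER islands 10 of 24 values stayed, each of them 0, while 13 moved and 1 reversed. The number of clusters was 2 at a gap of 500 kb and of 2 Mb. When a receptor was counted by contact with a SICER island, 3A6 KO, 3A6 WT and LAP2alpha held 0 and lamin B1 held 1 at 30 cycles, and 3A6 KO held 1 and lamin B1 held 0 at 12 cycles. On islands the KO minus WT difference with 3A6 was 0 at 30 cycles, also within the proximal (0) and the distal cluster (0), and 1 at 12 cycles. The 30 minus 12 cycles difference on islands reversed to -1 for 3A6 KO, and was 0 for 3A6 WT, 0 for LAP2alpha and 1 for lamin B1. Islands are far shorter than domains and few were called in the clusters. For the proximal cluster the KO minus WT difference with 3A6 at 30 cycles was 32 with domains above the median score, which drops the WT domain, and 7 with members under 2 kb, which leaves fewer genes. No paired analysis was possible because each group had 1 library and no result came from a test. Depth was taken as reads inside islands, the authors' numbers of mapped reads were not used here, and without replicates none of the differences can be set against a spread.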
